A study of Homo sapiens with 12 samples.

Results

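Long intergenic noncoding RNAs were described in U87 cells, a human glioblastoma cell line, after 72 h with 1 of 3 compounds or vehicle. The RNAs were the genes of the expression table whose symbol is LINC followed by digits and whose mean level over all 12 libraries was at least 4. Levels were regularized log (rlog) values, which are on the log2 scale and were made by the authors from gene counts. Of 62757 genes in the table, 2286 carried a LINC symbol, and 165 of these met the rule. A further 969 stood at 0 in every library, and 1152 varied with a mean below 4. The groups were compound 1 at 30 µM, compound 4 at 10 µM, compound 5 at 5 µM and vehicle, with 3 libraries each. The labels number the compounds without saying which molecule each number stands for, and describe the libraries of poly(A) RNA as independent biological replicates. The cell line is a single established line, so the replicates are cultures and not patients.

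A long noncoding RNA is a transcript without a long open reading frame, and the intergenic kind arises between protein-coding genes. Many are spliced and polyadenylated like mRNAs but are present at lower levels, stay in the nucleus more often and are degraded there by the nuclear exosome. In glioblastoma they are studied as cell-state markers and as regulators of nearby genes, although most have no known role. The LINC symbol marks a gene that was named only for lying between coding genes, so it says nothing of function.

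The genes were chosen on their mean level, so that level is given as a description. The 165 means ran from 4.01 to 10.36 with a median of 5.57, against a median of 8.6 over the 15524 genes with a mean of at least 3, which are all the genes tested. The means of 52 LINC genes lay between 4 and 5 and those of 21 were above 8. The lowest 3 inside the threshold were LINC02175 at 4.01, LINC01376 at 4.03 and LINC02889 at 4.03. The nearest 3 outside it were LINC01415 at 3.99, LINC01807 at 3.96 and a gene that shares the symbol LINC01605 at 3.95. In each of the 4 groups, 164 of the 165 averaged at least 4, and the exception was LINC02175, with 3.99 in compound 5 libraries. With the symbols of GENCODE 29 in place of current ones, 141 genes would meet the rule, of which 124 are among the 165.

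Not every gene with the symbol was an intergenic RNA by annotation. GENCODE 29 on GRCh38 held 160 of the 165 and typed 127 as lincRNA, 16 as processed transcript and 8 as antisense. It typed 2 as protein-coding, LINC03040 under its former name C6orf223 and LINC02693 under its former name C17orf51. The exons of 50 overlapped those of another gene, and those of 10 overlapped a protein-coding gene. None of the sources used here gives the strand setting of the counting, so reads of overlapping genes cannot be told apart. Exonic length had a median of 2950 bases, against 5177.5 in 12764 tested protein-coding genes. The LINC genes had a median of 4.5 exons, against 11 in the coding genes, and 21 of them had 1 exon. GC content was close, with a median of 47.2% in LINC genes and 48.1% in coding genes.

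Levels of different genes were compared per kilobase of exon, as rlog minus the log2 of the exonic length in kilobases. On this scale, vehicle levels of the LINC genes ran from 1.7 to 9.5 with a median of 4.2. The 6 highest were LINC00973 at 9.5, LINC02970 at 9.36, LINC01444 at 8.8, LINC01050 at 8.44, LINC01605 at 8.37 and LINC01116 at 7.49. LINC01116, which lies near the HOXD cluster and has been studied in glioma, did not pass the test with any compound.

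The listed glioma-line genes were expressed, but so were most listed neuron genes, so these lists do not identify the cells. All 9 listed glioma-line genes had means of at least 3, with FN1 at 17.44, VIM at 15.98 and CD44 at 15.20, and 1 of 8 leukocyte markers did. Of 6 astrocyte markers 3 did, with GFAP, the intermediate filament of astrocytes, at 5.71 and AQP4, their water channel, at -2.21. Of the other lists, 7 of 9 neuron, 3 of 7 epithelium and 4 of 6 endothelium markers had means of at least 3. The summed rlog of the glioma-line list was 133.9 to 134.2 in compound 1, 131.5 to 131.8 in compound 4, 133.9 to 134.3 in compound 5 and 133.1 to 133.3 in vehicle libraries. With compound 4, 6 of its 9 genes were called lower and 1 higher, where 21.6% of all genes were called lower and 19.0% higher. With compound 5, 2 were lower and 4 higher, against 19.2% and 15.9% of all genes. With compound 1, 0 were lower and 2 higher, against 5.63% and 5.24%. In bulk RNA, fewer cells with a transcript and less of it per cell cannot be told apart. The mean distance of a library to the others of its group, as a root mean square over all tested genes, was 0.0622 to 0.0974, highest in compound 5 replicate 1.

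Each compound was compared with vehicle, and each gene was called at an adjusted p under 0.05 by limma with Benjamini-Hochberg adjustment over all 15524 genes. Compound 4 had the most calls among LINC genes and compound 1 the fewest, and with each of the 3 compounds a smaller share of LINC genes than of all genes was called. With compound 1, 8 of 165 were called, 4.85%, against 10.9% of all genes. With compound 4, 47 were called, 28.5%, against 40.6% of all genes. With compound 5, 39 were called, 23.6%, against 35.1% of all genes. At an unadjusted p under 0.05 the counts were 29, 67 and 61 for compounds 1, 4 and 5. For 100 of the 165, none of the 3 comparisons gave a call.

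Higher calls outnumbered lower ones with each compound. Compound 1 had 7 higher and 1 lower, where 5.24% of all genes were called higher and 5.63% lower. Compound 4 had 31 higher and 16 lower, 18.8% and 9.7% of the LINC genes, against 19.0% and 21.6% of all genes. Compound 5 had 32 higher and 7 lower, 19.4% and 4.24% of the LINC genes, against 15.9% and 19.2% of all genes. Whether the split of LINC genes differs from that of all genes was not tested. With libraries centred on their medians the compound 4 split was 27 higher and 23 lower, and with quantile-normalized libraries it was 26 higher and 23 lower. With quantile-normalized libraries the splits were 27 higher and 12 lower for compound 5, and 6 higher and 2 lower for compound 1.

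A list of 16 genes, chosen for transcripts known to stay in the nucleus, such as NEAT1, moved with the treatments. Each comparison was fitted again with their mean rlog in each library as a covariate. The list also holds protein-coding genes such as DDX5 and CLK1, and where their RNA lay in the cell was not measured. With this nuclear covariate 7 of the 8 LINC calls with compound 1, 18 of the 47 with compound 4 and 31 of the 39 with compound 5 were lost. The share of all genes called also fell with each compound, as given further below. A lost call did not always mean a smaller difference. With compound 1, LINC01443 had 0.188 without the covariate and 0.211 with it, whereas LINC01050 had 0.268 and 0.053. The list and the treatments move together, so their parts in these calls cannot be told apart. Named calls that were lost with it are given with their limma adjusted p in that fit.

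Differences were small on the rlog scale, which shrinks those of weakly expressed genes most. The median difference over the 165 genes was 0.02 with compound 1, 0.01 with compound 4 and 0.03 with compound 5, and over all genes it was within 0.01 of 0. The median absolute difference was 0.03, 0.06 and 0.06 in LINC genes with compounds 1, 4 and 5, against 0.04, 0.08 and 0.07 in all genes. An absolute difference of at least 0.2 was reached by 3, 16 and 12 LINC genes. At least 0.5 was reached by 1 of them, LINC03040 with compound 4.

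**Figure D1:**
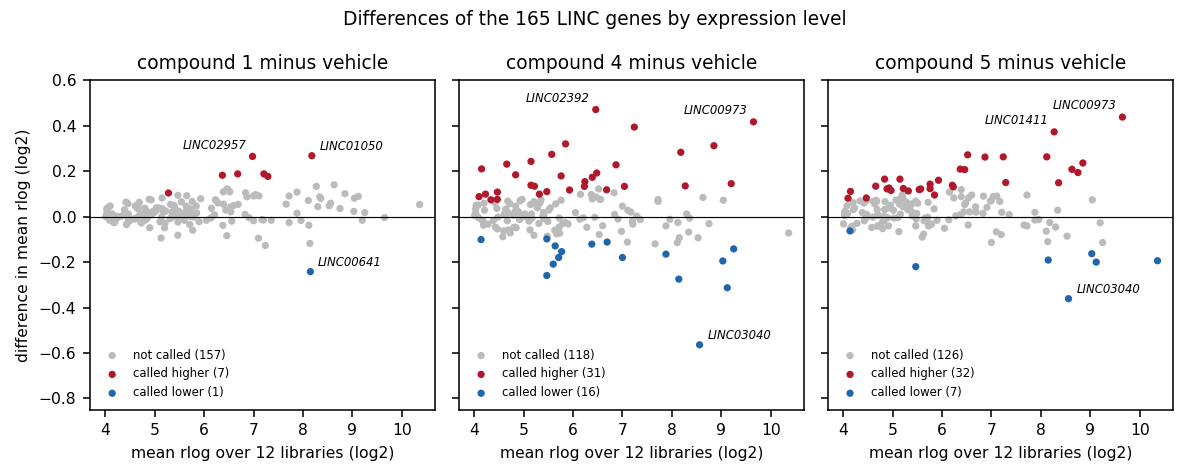
Difference in mean rlog between each compound and vehicle (vertical axis, log2) against the mean rlog over 12 libraries (horizontal axis, log2) for the 165 LINC genes, coloured by call. Compound 1 has 8 called genes, compound 4 has 47 and compound 5 has 39, and the 3 called genes with the largest absolute difference are named in each panel.

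In all genes the share called grew from each range of level to the next, and in the LINC genes it did not grow throughout. Among those with a mean between 4 and 5, 17.3% of LINC genes and 20.8% of all genes were called with compound 4, and 17.3% and 16.3% with compound 5. Among those with a mean between 8 and 11, 47.6% of 21 LINC genes and 48.2% of 6711 genes were called with compound 4. With compound 5 the shares in that range were 57.1% of LINC genes and 43.3% of all genes. Between 7 and 8, a range of 17 LINC genes, the share was lower in LINC genes with both compounds. There 23.5% of LINC genes and 39.4% of all genes were called with compound 4, and 11.8% and 32.5% with compound 5. Between 5 and 6 the LINC share with compound 4 was higher, at 31.2% of 48 LINC genes and 26.4% of all genes. With compound 1 the share of LINC genes was 11.8% between 7 and 8 and 9.52% between 8 and 11, against 7.69% and 13.1% of all genes. Since most LINC genes had means under 6 and most tested genes had means over 8, the shares of all LINC genes and of all genes are over different ranges of level.

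**Figure D2:**
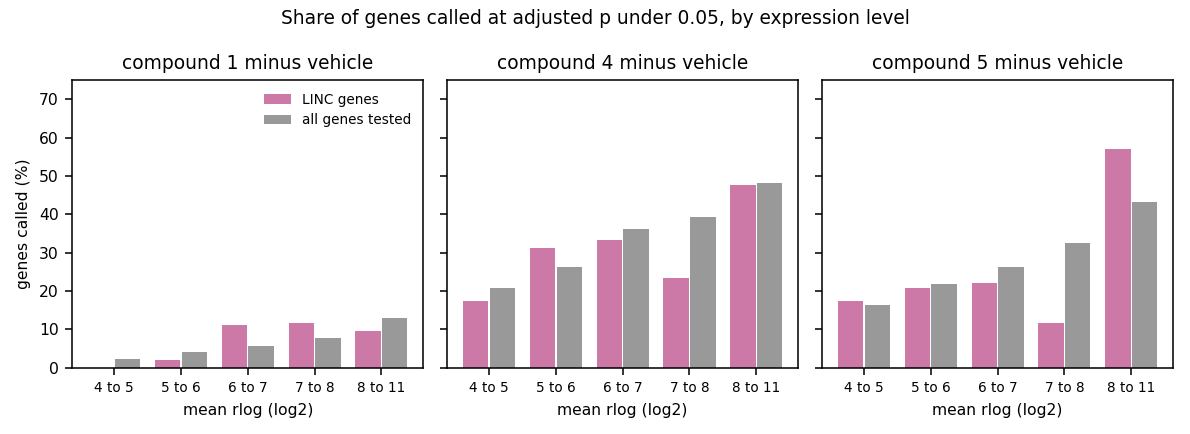
Share of genes called (vertical axis, percent) by range of mean rlog (horizontal axis, log2), for LINC genes and for all genes tested, in each compound against vehicle. With compound 4 the bars lie close together at both ends, and from 7 to 8 the LINC genes stand at 23.5% and all genes at 39.4%. With compound 5 the LINC genes are lower from 7 to 8, at 11.8% against 32.5%, and higher from 8 to 11, at 57.1% against 43.3%.

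The largest change among LINC genes was a fall of LINC03040, formerly C6orf223, on the plus strand of chromosome 6 from 44000580 to 44005958. Its rlog was 8.19, 8.21 and 8.25 in compound 4 libraries, 8.43, 8.4 and 8.43 in compound 5 libraries, 8.88, 8.79 and 8.84 in compound 1 libraries and 8.84, 8.74 and 8.76 in vehicle libraries. All compound 4 and compound 5 libraries lay below all vehicle libraries, and compound 1 libraries overlapped with vehicle. The difference from vehicle was -0.56 ± 0.043 (SE; a fold of 0.676, limma adjusted p = 2.4e-11) with compound 4 and -0.36 ± 0.043 (adjusted p = 2.11e-07) with compound 5. Its exons overlap a noncoding gene, AL109615.3, on the opposite strand.

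LINC00973, the LINC gene with the highest vehicle level per kilobase, rose with compounds 4 and 5. It is a gene of 2 exons on the plus strand of chromosome 3, from 98981058 to 98983096, that has been studied in renal carcinoma. Its rlog was 9.91, 9.82 and 9.85 in compound 4 libraries, 9.88, 9.80 and 9.96 in compound 5 libraries, 9.42, 9.49 and 9.39 in compound 1 libraries and 9.28, 9.58 and 9.47 in vehicle libraries. The compound 4 and 5 libraries stood above every vehicle library, and vehicle replicates spread more widely (SD 0.15) than those of other groups. The differences were 0.42 ± 0.055 (limma adjusted p = 7.12e-07) with compound 4, 0.44 ± 0.055 (adjusted p = 6.01e-07) with compound 5 and 0.00 with compound 1, where the 95% interval ran from -0.12 to 0.11.

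LINC02392, an RNA of chromosome 12 from 90280894 to 90300340 with no role known for certain, had the largest rise with compound 4. Its rlog was 6.65, 6.81 and 6.75 in compound 4 libraries, 6.52, 6.55 and 6.34 in compound 5 libraries, 6.36, 6.38 and 6.42 in compound 1 libraries and 6.25, 6.28 and 6.27 in vehicle libraries. Every treated library was above every vehicle library, with compound 4 highest. The difference was 0.47 ± 0.049 (a fold of 1.39, limma adjusted p = 1.4e-08) with compound 4, 0.21 ± 0.049 (adjusted p = 0.00169, or 0.152 with the nuclear covariate) with compound 5 and 0.12 ± 0.049 (adjusted p = 0.117) with compound 1.

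LINC01963, a gene of 1 exon on chromosome 2 from 216217045 to 216220192, also rose with compounds 4 and 5. Its rlog was 7.52, 7.58 and 7.40 in compound 4 libraries, 7.44, 7.29 and 7.39 in compound 5 libraries, 7.12, 6.97 and 6.85 in compound 1 libraries and 7.06, 7.17 and 7.10 in vehicle libraries. It was above vehicle in all libraries of compounds 4 and 5, and compound 1 libraries overlapped with vehicle. The differences were 0.39 ± 0.058 (limma adjusted p = 4.1e-06) and 0.26 ± 0.058 (adjusted p = 8.5e-04) with compounds 4 and 5.

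Other rises with compound 4 included LINC00520, known as LEENE for its part in the endothelial expression of nitric oxide synthase. LINC00520 had 6.04, 6.09 and 6.06 in compound 4, 5.85, 5.84 and 5.81 in compound 5 and 5.75, 5.75 and 5.72 in vehicle libraries. These groups did not overlap, and the difference was 0.32 ± 0.037 with compound 4 (limma adjusted p = 8.03e-08) and 0.09 ± 0.037 with compound 5 (adjusted p = 0.0481). The compound 5 call was lost when any vehicle or compound 5 library was left out, with the replicate number as a block (adjusted p = 0.0501) and with the nuclear covariate (0.198). LINC02970 rose by 0.31 and 0.24, LINC01705 by 0.24 and 0.17, and LINC02376 by 0.27 and 0.12 with compounds 4 and 5. In LINC02376 compound 5 replicate 1, at 5.47, lay within the vehicle range of 5.44 to 5.5. Its compound 5 call was lost without vehicle replicate 1 or 3 or compound 5 replicate 2 or 3 (limma adjusted p = 0.0873 to 0.227). With the nuclear covariate, the compound 5 calls of LINC02376 (adjusted p = 0.433) and LINC01705 (0.0821) were lost.

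The falls with compound 4 were led, after LINC03040, by LINC01444 on chromosome 18, which had 8.94, 8.83 and 8.96 in compound 4, 9.01, 9.02 and 9.04 in compound 5, 9.26, 9.37 and 9.31 in compound 1 and 9.26, 9.21 and 9.20 in vehicle libraries. All libraries of compounds 4 and 5 were below vehicle. The difference was -0.31 ± 0.043 with compound 4 (limma adjusted p = 1.41e-06) and -0.20 ± 0.043 with compound 5 (adjusted p = 6.53e-04, or 0.166 with the nuclear covariate). LINC01443 lies on the other strand of the same stretch, and its gene body contains that of LINC01444. It moved the other way with compound 4, at 6.71, 6.71 and 6.70 in compound 4 and 6.59 in each vehicle library, a rise of 0.12 ± 0.045 (limma adjusted p = 0.0385). That call was lost when any vehicle or compound 4 library was left out (adjusted p = 0.0699 to 0.0881) and with the nuclear covariate (0.105).

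LINC00460, studied in several carcinomas as an RNA that is high in tumours, also fell with compound 4. It had 8.01, 8.02 and 7.95 in compound 4, 8.19, 8.13 and 8.16 in compound 5, 8.15, 8.25 and 8.06 in compound 1 and 8.29, 8.24 and 8.27 in vehicle libraries. Compound 4 and 5 libraries lay below all vehicle libraries, and 1 compound 1 library lay within their range. The difference was -0.28 ± 0.047 (limma adjusted p = 3.12e-05) with compound 4, -0.11 ± 0.047 (adjusted p = 0.0715) with compound 5 and -0.12 ± 0.047 (adjusted p = 0.109) with compound 1. The others named by size were LINC00702 (-0.26), LINC02328 (-0.21), LINC00205 (-0.20), LINC02035 (-0.18) and LINC01252 (-0.18), with limma adjusted p of at most 0.00545. Of these, LINC00702 and LINC00205 were also called lower with compound 5, at -0.22 and -0.16, and these calls were lost with the nuclear covariate (adjusted p = 0.0826 and 0.0893).

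**Figure D3:**
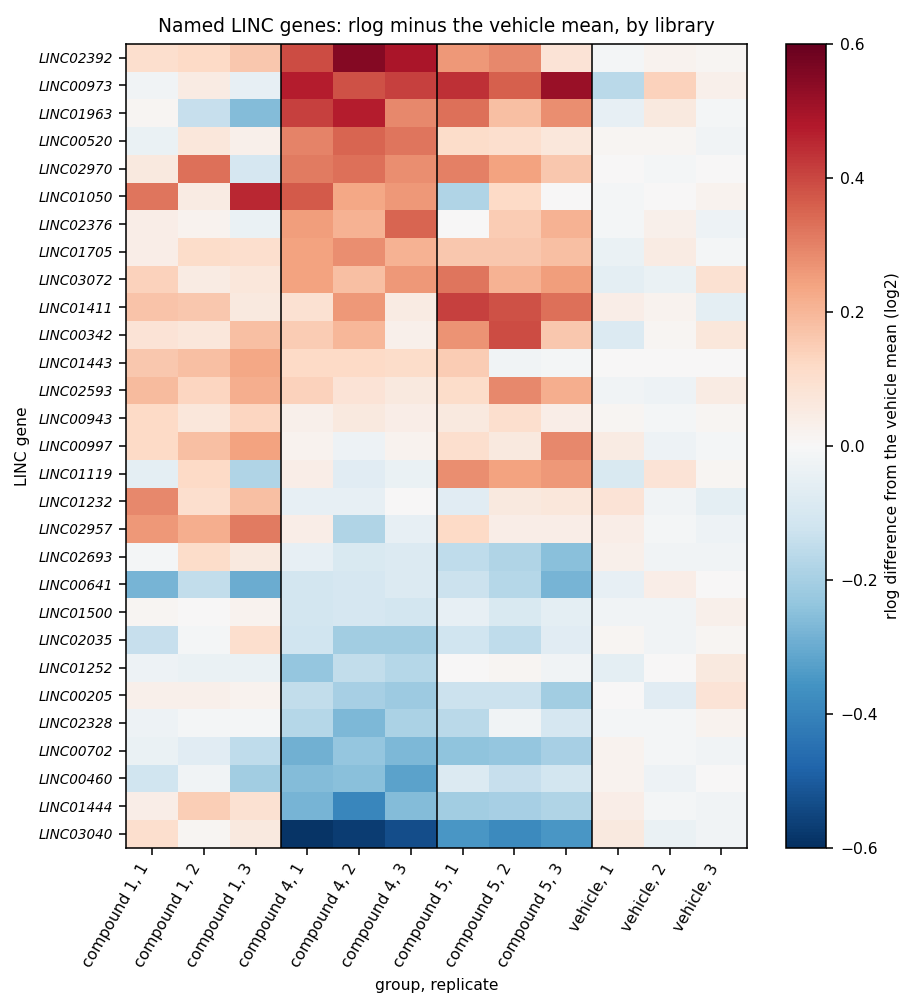
rlog minus the vehicle mean (colour, log2) of the 29 LINC genes named for their size of change (rows) in the 12 libraries (columns, by group and replicate). LINC03040 is lowest in compound 4 and compound 5 libraries, LINC00973 is high in both, and compound 1 libraries differ from vehicle in other rows, such as LINC02957.

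Some genes were higher with compound 5 than with compound 4. LINC01411, a gene of 11 exons on chromosome 5 from 174336295 to 174532457, had 8.52, 8.49 and 8.44 in compound 5, 8.20, 8.37 and 8.16 in compound 4, 8.28, 8.27 and 8.17 in compound 1 and 8.15, 8.13 and 8.05 in vehicle libraries. Compound 5 libraries stood above all others, and those of compounds 1 and 4 all lay above vehicle. The difference was 0.37 ± 0.051 with compound 5 (limma adjusted p = 2.09e-06), 0.14 ± 0.051 with compound 4 (adjusted p = 0.0355) and 0.13 ± 0.051 with compound 1 (adjusted p = 0.0942). The compound 4 call was lost without compound 4 replicate 2 (adjusted p = 0.299) or vehicle replicate 2 or 3 (0.0545 and 0.16).

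LINC01119 had 8.35, 8.31 and 8.33 in compound 5 and 7.98, 8.15 and 8.08 in vehicle libraries, a difference of 0.26 ± 0.057 (limma adjusted p = 6.69e-04). Its exons overlap those of LINC01118 on the same strand. LINC00342 and LINC03072 rose by 0.27 and 0.26 with compound 5, with no overlap with vehicle, and both calls were lost with the nuclear covariate (adjusted p = 0.43 and 0.077). Of the 7 falls, LINC02693, the former C17orf51, had 10.26, 10.23 and 10.16 in compound 5 and 10.44, 10.39 and 10.39 in vehicle libraries (limma adjusted p = 3.43e-04, or 0.177 with the nuclear covariate). It was the LINC gene with the highest mean, 10.36. The smallest named fall, LINC01500 at -0.06, has exons in common with DACT1, an inhibitor of Wnt signalling. That call was lost without vehicle replicate 3, compound 5 replicate 2 or compound 5 replicate 3, with limma adjusted p between 0.0551 and 0.158, and with the nuclear covariate (0.141).

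Compound 1, given at the highest dose, gave 8 calls. LINC02957 on chromosome 9 had 7.17, 7.13 and 7.22 in compound 1, 6.95, 6.73 and 6.86 in compound 4, 7.03, 6.95 and 6.95 in compound 5 and 6.95, 6.90 and 6.88 in vehicle libraries. The compound 1 libraries were above those of every other group, and the difference from vehicle was 0.27 ± 0.05 (limma adjusted p = 8.14e-04). LINC00641, the only one called lower, had 8.0, 8.13 and 7.98 in compound 1, 8.17, 8.18 and 8.20 in compound 4, 8.15, 8.11 and 8.0 in compound 5 and 8.23, 8.32 and 8.28 in vehicle libraries. All treated libraries lay below vehicle, with differences of -0.24 ± 0.048 (limma adjusted p = 0.00161) with compound 1 and -0.19 ± 0.048 (adjusted p = 0.00288) with compound 5. LINC01443 rose by 0.19 ± 0.045 (limma adjusted p = 0.00726). With the nuclear covariate the calls of LINC00641 with compounds 1 and 5 (adjusted p = 0.146 and 0.386) and of LINC01443 (0.0758) were lost, and that of LINC02957 (0.026) was not.

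The other 5 calls with compound 1 were each lost when 1 of several libraries was left out. LINC01050 had 8.36, 8.09 and 8.49 in compound 1 and 8.03, 8.04 and 8.06 in vehicle libraries, a difference of 0.27 ± 0.072 (limma adjusted p = 0.015) that was not called without compound 1 replicate 1 or 3 or without vehicle replicate 1 or 2. Its compound 1 replicate 2 stood just above vehicle. LINC01232, whose exons overlap TM9SF2 on the opposite strand, was lost without compound 1 replicate 1 or 3 or vehicle replicate 2 or 3. LINC02593 was lost without compound 1 replicate 3 or vehicle replicate 2, and LINC00997 without compound 1 replicate 2 or 3 or vehicle replicate 2 or 3. LINC00943 was lost without compound 1 replicate 1 or 3 or any of the vehicle replicates. Over these the limma adjusted p was 0.0506 to 0.141. With the nuclear covariate all 5 were lost (adjusted p = 0.216 to 0.843), as were LINC01050 with compound 4 (0.609) and LINC02593 with compound 5 (0.644). In the fit without the covariate, the number of LINC genes called fell to 3 without vehicle replicate 2 and to 4 without compound 1 replicate 3.

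**Figure D4:**
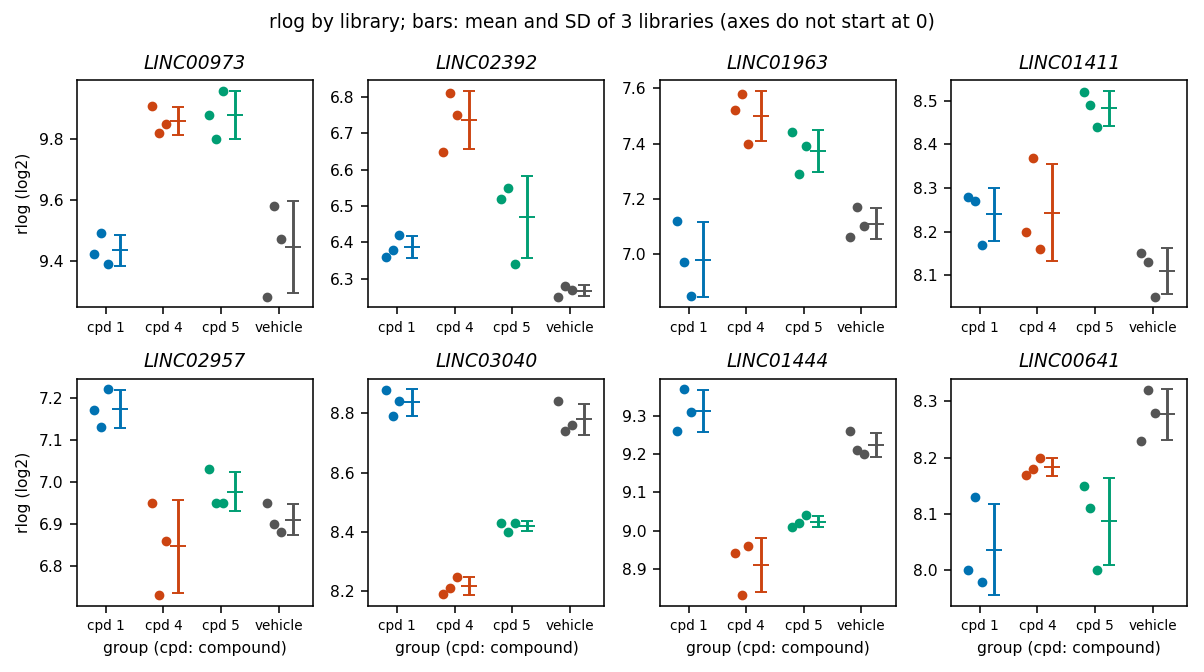
rlog (vertical axis, log2) of 8 LINC genes in each library (points) with the mean and SD of 3 libraries (bars) for compounds 1, 4 and 5 (cpd) and vehicle (horizontal axis). LINC03040 and LINC01444 are lower with compounds 4 and 5 than with vehicle, LINC01411 is highest with compound 5, and LINC02957 is highest with compound 1.

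All 8 genes called with compound 1, all 47 called with compound 4 and 37 of the 39 called with compound 5 had libraries that did not overlap with vehicle. Without regard to calls, 29.9% of all genes with compound 1, 53.4% with compound 4 and 44.0% with compound 5 were free of overlap. In the LINC genes these numbers were 36, 80 and 66 of 165. The comparisons of the 3 compounds share the vehicle libraries, so their calls are given side by side only.

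The compounds were also set against each other, in 3 pairs. Their doses differed, so these tests compare the libraries at the doses given and not the molecules. Between compound 4 and compound 1, 22 LINC genes were called higher and 27 lower. These are 49 of 165, or 29.7%, against 42.7% of all genes. Between compound 5 and compound 1 the counts were 16 and 15, 31 in all or 18.8%, against 30.1% of all genes. Between compound 5 and compound 4 they were 22 and 9, 31 in all or 18.8%, against 22.0% of all genes. The last count fell to 17 without compound 4 replicate 2.

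LINC03040 was lower with compound 4 than with compound 1, with a difference of -0.62 ± 0.043 (limma adjusted p = 2.96e-12), and higher with compound 5 than with compound 4 by 0.20 ± 0.043 (adjusted p = 8.94e-04). LINC01963 was higher with compound 4 than with compound 1 by 0.52 ± 0.058 (limma adjusted p = 4.02e-08). LINC01411 was higher with compound 5 than with compound 4 by 0.24 ± 0.051 (limma adjusted p = 0.00114), and LINC01119 by 0.29 ± 0.057 (adjusted p = 4.72e-04). LINC01050 went the other way: it had 7.86, 8.16 and 8.04 in compound 5 and 8.41, 8.27 and 8.30 in compound 4 libraries, and was lower with compound 5, with a difference of -0.31 ± 0.072 (limma adjusted p = 0.00231). LINC00963, an RNA studied in prostate cancer, had 9.32 in each compound 4 library, against 9.19, 9.14 and 9.12 with compound 5 and 9.21, 9.16 and 9.17 with vehicle. It was called higher with compound 4 than with vehicle, at 0.14 ± 0.039 (limma adjusted p = 0.00415). For LINC00973 compounds 5 and 4 differed by 0.02, with a 95% interval from -0.09 to 0.13.

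Other LINC genes that are often studied in cancer moved little. LINC00511, LINC00467, LINC00665 and LINC00662 were called with no compound, with absolute differences of up to 0.09. LINC00467 had 7.96, 7.93 and 7.97 in compound 5, 7.90, 7.94 and 8.03 in compound 4, 8.08, 7.86 and 7.91 in compound 1 and 8.06, 7.92 and 7.91 in vehicle libraries, and all groups overlapped. LINC00707 at a mean of 2.92, LINC01503 at 1.98 and LINC01133 at -1.49 were below the threshold, and LINC00941 was listed at 0 in every library.

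Intergenic RNAs are often compared with the coding gene beside them, since some act on it or share its promoter. The gap to the nearest protein-coding gene had a median of 21389 bases, and 7 LINC genes started within 1000 bases of a coding gene start on the other strand. With compound 4, 35 called LINC genes had a tested neighbour, and 10 of these neighbours were called in the same direction, 5 in the opposite one and 20 were not called, 42.9% called against 40.6% of all genes. With compound 5 the counts were 3, 3 and 24 of 30, 20.0% against 35.1%, and with compound 1 they were 3, 0 and 4 of 7, 42.9% against 10.9%. The 3 with compound 1 were TMEM132B, 1063892 bases from LINC00943, FAM216B, which rose by 0.08 beside LINC01050, and HNRNPC, at -0.14 beside LINC00641. The calls of LINC00943 and LINC01050 were each lost when 1 of several libraries was left out.

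LINC00205 and POFUT2, a protein O-fucosyltransferase, lie 151 bases apart, head to head, on opposite strands of chromosome 21. LINC00205 had 8.96, 8.91 and 8.89 in compound 4 and 9.11, 9.04 and 9.19 in vehicle libraries, a difference of -0.20 ± 0.044, and POFUT2 differed by -0.28 (limma adjusted p = 7.1e-04 and 4.8e-06). With compound 5 LINC00205 was called at -0.16 and POFUT2, at -0.10, was not. LINC01705 lies 299528 bases from DUSP10, a phosphatase that inactivates p38 and JNK, and DUSP10 differed by 0.29 with compound 4 and 0.30 with compound 5, called in both. SLCO4A1, an organic anion transporter 39329 bases from LINC02970, differed by 0.29 and 0.21, also called in both.

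Others went apart. EFNB2, a ligand of Eph receptors 105415 bases from LINC00460, was 0.27 higher with compound 4, where LINC00460 was lower. SAMD11, 2911 bases from LINC02593, was -0.32 with compound 5, where LINC02593 was 0.21 higher. The coding genes nearest LINC03040 and LINC00973, MRPL14 of the mitochondrial ribosome and the receptor gene DCBLD2, were called with no compound.

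**Figure D5:**
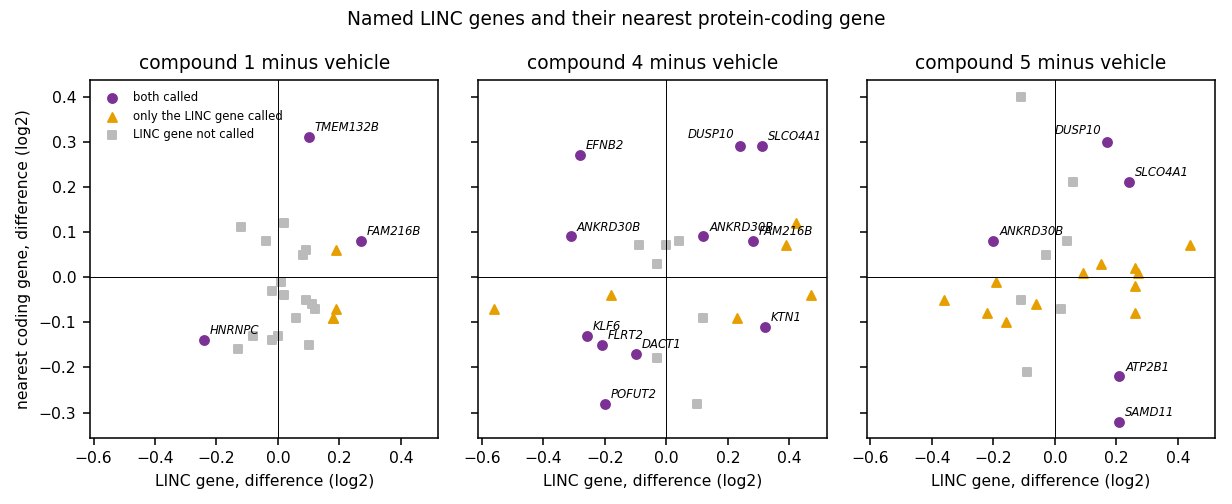
Difference from vehicle of named LINC genes (horizontal axis, log2) and of the nearest protein-coding gene (vertical axis, log2), for each compound. Purple points are pairs with both genes called and are labelled with the coding gene: POFUT2 lies at -0.28 beside LINC00205 at -0.20 with compound 4, and EFNB2 lies at 0.27 beside LINC00460 at -0.28.

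Promoter sequences were read for the LINC genes, as windows of 300 bases from 250 before to 50 after the start in RefSeq (GRCh38.p14). There were 137 windows for 118 of the symbols, with a median GC content of 55.0% and 8 CpG, against 58.7% and 14 in all 35116 RefSeq windows. Both strands were searched for 7 short motifs. The AP-1 letters TGANTCA were in 16.1% of LINC windows (20 genes) and 7.71% of all windows. FOS and JUN factors bind the forms with C or G in the middle. The search took any base there, so these shares also count forms such as TGATTCA in LINC00973 and TGAATCA in LINC01050. The antioxidant element TGACNNNGC was in 19.7% and 13.3%, and the cAMP response element TGACGTCA in 5.11% and 1.85%. The E-box CACGTG was in 4.38% and 7.26%, the NF-kB element (GGG and TTCC with 3 bases between) in 3.65% and 6.52%, the sterol element TCACNCCAC in 1.46% and 1.13%, and the heat shock element (GAA, TTC and GAA with 2 bases between each) in 0 windows and 0.49%. AP-1 and antioxidant matches can share letters where TGAC begins both. These shares describe letters and were not tested.

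The 4 windows shown belong first to the LINC genes with the largest fall (LINC03040) and the largest rise with compound 5 (LINC00973). With compound 4 LINC00973 rose by 0.42, less than LINC02392 at 0.47, whose window is not shown. Then come LINC00460, a much-studied RNA that fell, and LINC01411. LINC01411 had the largest compound 5 rise among genes called higher with compound 5 than with compound 4. Capitals mark matches: the sterol element on the minus strand in LINC03040, which begins 27 bases after the start, and AP-1 in the others, with an antioxidant match as well in LINC01411. LINC00973 has 4 windows in RefSeq, 3 of them with an AP-1 match, and the one nearest the GENCODE start is shown. The match in the window that begins at 98914316 is TGATTCA. RefSeq starts can differ from those of GENCODE 29. Their positions are chr6:44000335-44000634, chr3:98980805-98981104, chr13:106376314-106376613 and chr5:174336104-174336403, all on the plus strand.
LINC03040: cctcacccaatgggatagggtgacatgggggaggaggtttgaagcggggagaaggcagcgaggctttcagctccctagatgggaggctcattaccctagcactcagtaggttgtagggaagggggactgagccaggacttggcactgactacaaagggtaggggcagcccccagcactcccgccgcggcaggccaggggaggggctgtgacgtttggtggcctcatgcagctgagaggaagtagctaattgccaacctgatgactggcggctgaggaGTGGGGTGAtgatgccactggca
LINC00973: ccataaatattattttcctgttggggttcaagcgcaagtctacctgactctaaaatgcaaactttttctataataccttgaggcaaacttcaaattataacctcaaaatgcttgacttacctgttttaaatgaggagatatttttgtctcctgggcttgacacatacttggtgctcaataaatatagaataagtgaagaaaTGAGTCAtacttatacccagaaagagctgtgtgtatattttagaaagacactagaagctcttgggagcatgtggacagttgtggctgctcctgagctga
LINC00460: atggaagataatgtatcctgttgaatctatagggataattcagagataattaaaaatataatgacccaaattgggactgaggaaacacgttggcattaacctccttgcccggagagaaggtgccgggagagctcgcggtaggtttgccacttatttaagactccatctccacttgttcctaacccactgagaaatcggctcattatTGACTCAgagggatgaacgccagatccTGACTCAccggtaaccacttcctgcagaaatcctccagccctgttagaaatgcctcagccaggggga
LINC01411: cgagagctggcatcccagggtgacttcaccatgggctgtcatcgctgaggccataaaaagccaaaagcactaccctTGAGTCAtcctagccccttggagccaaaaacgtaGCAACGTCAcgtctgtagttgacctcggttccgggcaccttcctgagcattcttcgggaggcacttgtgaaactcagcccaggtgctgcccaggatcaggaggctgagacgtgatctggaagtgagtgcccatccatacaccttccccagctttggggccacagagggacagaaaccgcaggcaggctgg
AP-1 letters stand before the start of a gene that rose with compounds 4 and 5 (LINC00973) and of one that fell with compound 4 (LINC00460). They also stand before that of a gene that rose more with compound 5 than with compound 4 (LINC01411). LINC02392, LINC01444 and LINC00205 had none of the 7 motifs in their windows.

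Other noncoding RNAs and RNA-processing genes were read beside the LINC genes, in lists taken by symbol or function. Their shares called are set beside those of all genes, which were 10.9% with compound 1, 40.6% with compound 4 and 35.1% with compound 5. The lists were not matched to all genes by level, and in all genes the share called grew with level. Antisense RNAs, whose symbols end in -AS and digits, had 460 tested members. Of these 20 were called higher and 1 lower with compound 1, 92 and 33 with compound 4, and 88 and 7 with compound 5. These are 4.57%, 27.2% and 20.7% called, below the shares of all genes. PAX8-AS1 had 10.18, 10.22 and 10.02 in compound 4, 9.28, 9.47 and 9.41 in compound 5 and 8.59, 8.81 and 8.71 in vehicle libraries, differences of 1.44 ± 0.056 and 0.68 ± 0.056 (limma adjusted p = 1.48e-17 and 3.39e-10). These exceed the largest difference of any LINC gene.

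Small nucleolar RNA host genes, whose introns carry the guide RNAs of ribosomal RNA modification, had 4 higher and 0 lower of 24 with compound 1, 11 and 3 with compound 4, and 10 and 2 with compound 5. Their shares called were 16.7%, 58.3% and 50.0%, against 10.9%, 40.6% and 35.1% of all genes. SNHG1 differed by 0.56 with compound 4 and 0.40 with compound 5. MicroRNA host genes had 2 higher and 1 lower of 29 with compound 1, 7 and 3 with compound 4, and 11 and 1 with compound 5, which at 10.3%, 34.5% and 41.4% called is near the shares of all genes. Of 22 tested long noncoding RNAs with names of their own, 7 were higher and 0 lower with compound 1, 9 and 2 with compound 4, and 11 and 2 with compound 5, or 31.8%, 50.0% and 59.1% called against 10.9%, 40.6% and 35.1% of all genes. NORAD, which binds PUMILIO proteins in the cytoplasm, was -0.44 with compound 4, -0.29 with compound 5 and 0.14 with compound 1, all called.

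Genes of the machinery that degrades nuclear RNA were called about as often as all genes. Of 19 genes of the exosome and its adaptors, 0 were higher and 2 lower with compound 1, 5 and 2 with compound 4, and 4 and 4 with compound 5, or 10.5%, 36.8% and 42.1% called against 10.9%, 40.6% and 35.1% of all genes. DIS3, a catalytic subunit of the exosome, was -0.25 with compound 4 and -0.24 with compound 5, and EXOSC3, a core subunit, was 0.22 and 0.18 (limma adjusted p of at most 0.006). Of 16 Integrator genes, which end transcription at noncoding RNA genes, 1 was higher and 2 lower with compound 1, 4 and 2 with compound 4, and 3 and 4 with compound 5, or 18.8%, 37.5% and 43.8% called. NABP1, a subunit also known for binding single-stranded DNA, was 0.71 and 0.64 with compounds 4 and 5.

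Of the 16 genes listed as transcripts kept in the nucleus, 11 were called higher and 0 lower with compound 1, 9 and 1 with compound 4, and 13 and 0 with compound 5. Of all genes 5.24%, 19.0% and 15.9% were called higher and 5.63%, 21.6% and 19.2% lower. The median differences of the 16 were 0.20, 0.17 and 0.31 (rlog). NEAT1, the scaffold of paraspeckles, had 12.39, 12.30 and 12.67 in compound 1, 12.79, 12.73 and 12.74 in compound 4, 12.53, 12.72 and 12.65 in compound 5 and 11.69, 11.92 and 12.12 in vehicle libraries. It was higher than vehicle in every treated library. The mean rlog of the 16 was 10.14 to 10.36 in compound 1, 10.23 to 10.25 in compound 4, 10.24 to 10.39 in compound 5 and 9.90 to 10.15 in vehicle libraries. Compound 1 replicate 2 lay just below the highest vehicle library, and the other treated libraries lay above all of vehicle. With that mean as a covariate in the limma fit, 1 LINC gene was called with compound 1 (2.8% of all genes), 33 with compound 4 (28.0%) and 11 with compound 5 (13.9%).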

How the data were processed

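Poly(A) RNA of U87 cells was sequenced as paired 50-base reads. STAR 2.7.10a, DESeq2 1.30.1 and the GRCh38 build are named in the submitters' processing notes, without their settings. The deposited values are rlog values, on the log2 scale, made by the authors. The sources used here give no counting tool, annotation release, strand setting or filter. Depth is unknown, so the error of each value comes from replicate libraries, whose spread rlog shrinks in genes with few reads (median residual SD 0.042 in LINC genes).

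Symbols came from a current table (62686 of 62757 IDs matched). Differences were tested with limma 3.58.1 (R 4.3.3), with group means of all 12 libraries and variances that follow the mean, in 15524 genes with a mean of at least 3, and p-values were adjusted by Benjamini-Hochberg over these genes. Errors are SEs of differences, and intervals are 95%. Tested on simulated data, the fit recovered 65.0% to 77.0% of shifts of 0.2 and 99.5% to 100% of shifts of 0.5. Of its calls there, 2.44% to 6.54% were false. In those data 200 genes were shifted, whereas 1688 to 6627 were called in the real comparisons. Whether these shares hold for the real libraries was not tested.

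The LINC genes and the lists were chosen with earlier results of these data known. Named genes are the 8 largest rises and falls per compound among those called, the 6 highest per kilobase, the 3 nearest the threshold on each side, the 4 largest per pair and direction, their nearest coding genes, 12 genes chosen by name and list genes. Other settings tried were filters, scalings, variance models, the replicate number as a block, a covariate and leaving out each library. Tables and figures were made with Python.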

Additional observations from a re-analysis of the deposited data

How the results depend on the processing

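Of 64 calls of named genes in the comparisons that named them, 6 were lost when some library was left out. With no filter on low values 5 were lost, with the nuclear-retained mean as a covariate 17 and with the replicate number as a block 0. Of the 64, 0 changed sign. The 17 were 7 with compound 1 (each call but LINC02957), LINC01050 with compound 4, and 9 with compound 5 (LINC00205, LINC00342, LINC00641, LINC00702, LINC01444, LINC01500, LINC02593, LINC02693 and LINC03072). The named calls were mostly chosen for large differences and include calls between compounds, so the 6 do not give the share lost among all calls. Smaller calls outside them were also lost without some library. Among these were LINC00869, LINC01117, LINC01128 and LINC01358 with compound 4 (limma adjusted p = 0.0509 to 0.136). LINC00622 and LINC00667 with compound 5 were others (0.0659 to 0.136). The number of LINC genes called with compound 1, 8, was 5 with no filter on low values and 1 with the covariate. With compound 5, 39 became 11 with the covariate, of which 8 are among the 39. Leaving out 1 library at a time gave 3 to 10 with compound 1, 41 to 50 with compound 4, 35 to 48 with compound 5, 40 to 52 for compound 4 against compound 1, 23 to 31 for compound 5 against compound 1 and 17 to 31 for compound 5 against compound 4, the last with 17 without compound 4 replicate 2 and 19 without its replicate 3. The cause of these changes was not tested.

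With the replicate number as a block, 9, 48 and 38 LINC genes were called with compounds 1, 4 and 5. Deviations of libraries that share a number correlated between -0.215 and 0.249. Libraries with different numbers were not compared in this way, so these values do not settle whether the numbers pair the libraries.

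Some differences that were not called changed sign. With the covariate, LINC01116 was -0.073 and LINC00460 0.013 with compound 5. LINC00511 was 0.047, LINC00467 0.044 and LINC00665 0.033 with compound 1. LINC00467 was 0.05 with compound 4 and 0.074 with compound 5, and LINC00665 was 0.013 with compound 4. Leaving out 1 library at a time, LINC01116 ranged from -0.043 to 0.071 with compound 5, LINC00511 from -0.034 to 0.009 with compound 1 and from -0.007 to 0.049 with compound 4, LINC00467 from -0.083 to 0.031, from -0.048 to 0.037 and from -0.04 to 0.036 with compounds 1, 4 and 5, LINC00665 from -0.034 to 0.014 with compound 1, and LINC00963 from -0.029 to 0.001 with compound 1.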
